A study of Mus musculus with 598 samples.

Results

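Foxc1, Foxc2, Tcf15, Meox1 and Alx1 are transcription factor genes that mark the paraxial and head mesoderm of the vertebrate embryo. They were chosen by name, and all 5 had a row among the 40912 genes of the deposited count table. They were followed in 598 mouse cells of gastrulation stage, each sorted as positive for Mesp1-GFP and sequenced as a library of its own. Of these, 28.8% were wild type at E6.75, 14.2% (85 cells) knockout at E6.75, and 57.02% wild type at E7.25. The labels give no strain and do not name the gene that was knocked out, although Mesp1 itself stood at 7.404 CPM in knockout cells (95% interval 6.91 to 7.92) and at 405.8 CPM in the wild type cells sequenced alongside them. They name no embryo, litter or pool either, so each group was treated as 1 sample, with no test, no p-value and no replicate check. CPM is the reads of a gene per 1000000 reads on all genes, summed over the cells of a group. Every interval is a 95% interval (exact Poisson for reads, exact Clopper-Pearson for shares of cells) and covers only the error of counting, as the protocol names no molecular identifiers and reads are then not independent molecules.

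In the gastrulating embryo, mesoderm cells leave the primitive streak and settle as paraxial, lateral or head mesoderm. The paraxial part forms the presomitic mesoderm, from which Notch signalling and a segmentation clock cut off somites. Foxc1 and Foxc2 are closely related forkhead factors of presomitic mesoderm, somites and head mesenchyme, and embryos that lack both form no normal somites. Tcf15 (also called Paraxis) is a basic helix-loop-helix factor needed for somites to become epithelial. Meox1 is a homeobox factor of somites, and Alx1 a paired-like homeobox factor of the mesenchyme of the face and head.

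The labels do not mention it, but the cells fell into a pair of library sets told apart by reads of 8 genes that include Hoxd13 and Sox3. Set 1 held 83 of the early wild type cells, every knockout cell and 28.9% of all cells as wild type of E7.25. Set 2 held the other 89 early wild type cells and 28.1% of all cells as wild type of E7.25. For 95 genes, none of the 5 among them, the percentage of cells with a read was higher in set 1 by 70 points or more at both stages. Median depth at E7.25 was 807746 reads in set 1 and 2264484 in set 2, and over all cells depth lay between 101895 and 14159574 reads. The knockout was compared within set 1, and stage values are given over all cells and within each set. The labels' protocol describes adult bone marrow, which does not match the samples. Of 7 adult bone marrow markers, 1 reached 1 CPM among the early wild type cells and 2 did at E7.25, and the median cell had 0 and 0.992 CPM of all of them summed. Mesp1 was read in 99.4% of the early wild type cells and 99.7% of those of E7.25.

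Foxc1 (ENSMUSG00000050295) lies on GRCm38 chr13:31806633-31812476, plus strand, as a single exon of 5844 bases. Its forkhead neighbours Foxf2 and Foxq1 lie 175.2 and 245.7 kb away. Foxc2 (ENSMUSG00000046714) lies on chr8:121116171-121118895, plus strand, as a single exon of 2725 bases. It sits 9.04 kb from Foxl1 and 28.03 kb from Foxf1, within an intron of the gene model Gm20388, which had 0 reads. Over their transcripts the longest identical run of the 2 paralogs was 53 bases, and 16 of the 5805 windows of 40 bases in Foxc1 also occur in Foxc2. Reads of that stretch are the ones that counting could assign to the wrong paralog, so the 120 coding bases around it are shown, with the 5 bases that differ in capitals. They are coding bases 403 to 522 of 1659 in Foxc1 (chr13:31807610-31807729) and 382 to 501 of 1482 in Foxc2 (chr8:121116996-121117115), from GENCODE M21.
Foxc1: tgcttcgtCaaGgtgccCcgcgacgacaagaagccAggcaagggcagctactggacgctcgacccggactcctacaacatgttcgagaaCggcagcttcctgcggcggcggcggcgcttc
Foxc2: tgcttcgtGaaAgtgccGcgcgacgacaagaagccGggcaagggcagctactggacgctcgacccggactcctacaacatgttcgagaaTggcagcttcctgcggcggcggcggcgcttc
The sequences are the same at 95.8% of the bases, and all 40 codons give the same residue. The stretch lies in the forkhead DNA-binding domain. The other windows of Foxc1 do not occur in Foxc2, so most reads of each gene can be told apart by sequence. How reads that match both genes were counted is not given in the sources used here.

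Tcf15 (ENSMUSG00000068079, chr2:152143561-152149097, plus strand) has 2 exons of 980 bases in all and overlaps no other gene. Meox1 (ENSMUSG00000001493, chr11:101877510-101894374, minus strand) has 3 exons of 2228 bases. The antisense gene model Gm11551 overlaps it and had 4 reads in all cells. Alx1 (ENSMUSG00000036602, chr10:102998707-103030215, minus strand) has 9 exon blocks of 5756 bases over 8 annotated transcripts. The non-coding gene model Gm17028 overlaps it and had 30 reads. The longest runs shared with related genes were 12 bases between Meox1 and Meox2 and 19 between Alx1 and Alx4.

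In wild type cells all 5 genes had more reads at E7.25 than at E6.75, each by at least 2-fold in the log2 ratio of CPM with 1 CPM added. Of the 14217 genes with at least 1 CPM at either stage, 4.93% were at least 2-fold higher on the same measure. Tcf15 did not keep 2-fold with every cell weighted equally (0.96), with cells thinned to 100000 reads (0.79) or with 10 CPM added (0.62). The order of the ratios was Foxc2, Alx1, Foxc1, Meox1 and Tcf15. In set 1 alone Tcf15 was lower at E7.25 and Meox1 was less than 2-fold higher, so 3 of the 5 genes passed 2-fold there (background 7.84%), against 5 in set 2 (background 6.12%). Markers of other tissues also differed between the stages. Of 7 primitive streak markers, 5 were at least 2-fold lower at E7.25 (median log2 ratio -2.16), and their summed level ranged over cells from 600.9 to 7508 CPM at E6.75 and from 1.97 to 4409 CPM at E7.25. Of 7 definitive endoderm and axial markers, 5 were at least 2-fold higher (median 2.36), with sums from 0 to 1445 CPM at E6.75 and from 0 to 9195 CPM at E7.25. Of 10 cardiac progenitor markers 8 were measured and 5 were at least 2-fold higher (median 1.36), with sums from 0.340 to 646.1 CPM and from 1.18 to 2170.3 CPM. Their part in the stage values of the 5 genes was not tested.

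Foxc2 stood at 110.5 CPM (109.6 to 111.4) at E7.25 and at 1.85 CPM (1.69 to 2.02) at E6.75. Single cells ranged from 0 to 1114 CPM with a median of 16.1 CPM at E7.25, and from 0 to 50.1 CPM with a median of 0 at E6.75. Of the E7.25 cells, 90 had at least 100 CPM of Foxc2, and no E6.75 cell did. The lower parts of the distributions overlapped, since 75 cells at E7.25 had no Foxc2 read and only 11 wild type cells at E6.75 had any. The log2 ratio was 5.29 (5.19 to 5.39), with 3.24 in set 1 and 6.28 in set 2. The sets differed at E7.25 itself, at 41.4 CPM and a median cell of 3.33 CPM in set 1 against 145.4 CPM and 36.7 CPM in set 2.

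Foxc1 was at 15.2 CPM (14.9 to 15.6) at E7.25 and 1.35 CPM (1.21 to 1.497) at E6.75. Cells at E7.25 ranged from 0 to 353.6 CPM with a median of 1.279 CPM, and cells at E6.75 from 0 to 61.9 CPM with a median of 0. The log2 ratio was 2.79 (2.67 to 2.91), with 2.38 in set 1 and 3.04 in set 2. Unlike Foxc2, Foxc1 stood at a similar summed level in the E7.25 cells of both sets (13.7 and 15.98 CPM), although 1 cell gave 43.2% of its reads in set 1. With every cell thinned at random to 100000 reads, Foxc1 was read in 28.3% of the set 1 cells and 44.05% of the set 2 cells.

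Alx1 was at 34.2 CPM (33.8 to 34.7) at E7.25 and 1.21 CPM (1.08 to 1.36) at E6.75. It was the most unevenly spread of the genes with a high sum: the median E7.25 cell had 0 CPM, 47 cells (13.8%) had at least 10 CPM, 26 had at least 100 CPM and the highest had 713 CPM. At E6.75, 4 cells (2.33%) reached 10 CPM and the highest had 47.6 CPM. The log2 ratio was 3.99 (3.88 to 4.10), with 1.97 in set 1 and 5.15 in set 2.

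Tcf15 was the one gene of the 5 that was widely read at E6.75. It stood at 4.95 CPM (4.68 to 5.23) there and at 13.05 CPM (12.8 to 13.4) at E7.25, a log2 ratio of 1.24 (1.14 to 1.34). Thinned to equal depth, it was read in 23.3% of cells at E6.75 (17.2 to 30.3%) and in 20.2% at E7.25 (16.1 to 24.9%), so the share of cells with a read did not differ beyond counting error. The higher sum at E7.25 came from few cells: 11 cells had at least 100 CPM, up to 459 CPM, while the highest of the E6.75 cells had 53.2 CPM. In set 1 its level was 3.57 CPM at E7.25 and 5.54 CPM at E6.75, a log2 ratio of -0.52, and in set 2 it was 17.8 and 4.61 CPM, a ratio of 1.75. Leaving out the E7.25 cell with the most Tcf15 (1270 reads, in set 2) brought the ratio over all cells to 0.99, below 2-fold.

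Meox1 was the least abundant. It stood at 2.45 CPM (2.32 to 2.59) at E7.25 and 0.332 CPM (0.265 to 0.410) at E6.75, a log2 ratio of 1.37 (1.24 to 1.503). It was read in 40 cells (11.7%) at E7.25 and in 10 (5.81%) at E6.75. The cells at E7.25 ranged from 0 to 76.7 CPM and those at E6.75 from 0 to 19.8 CPM, with medians of 0 at both stages. The ratio was 0.23 in set 1 and 1.84 in set 2.

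**Figure D1:**
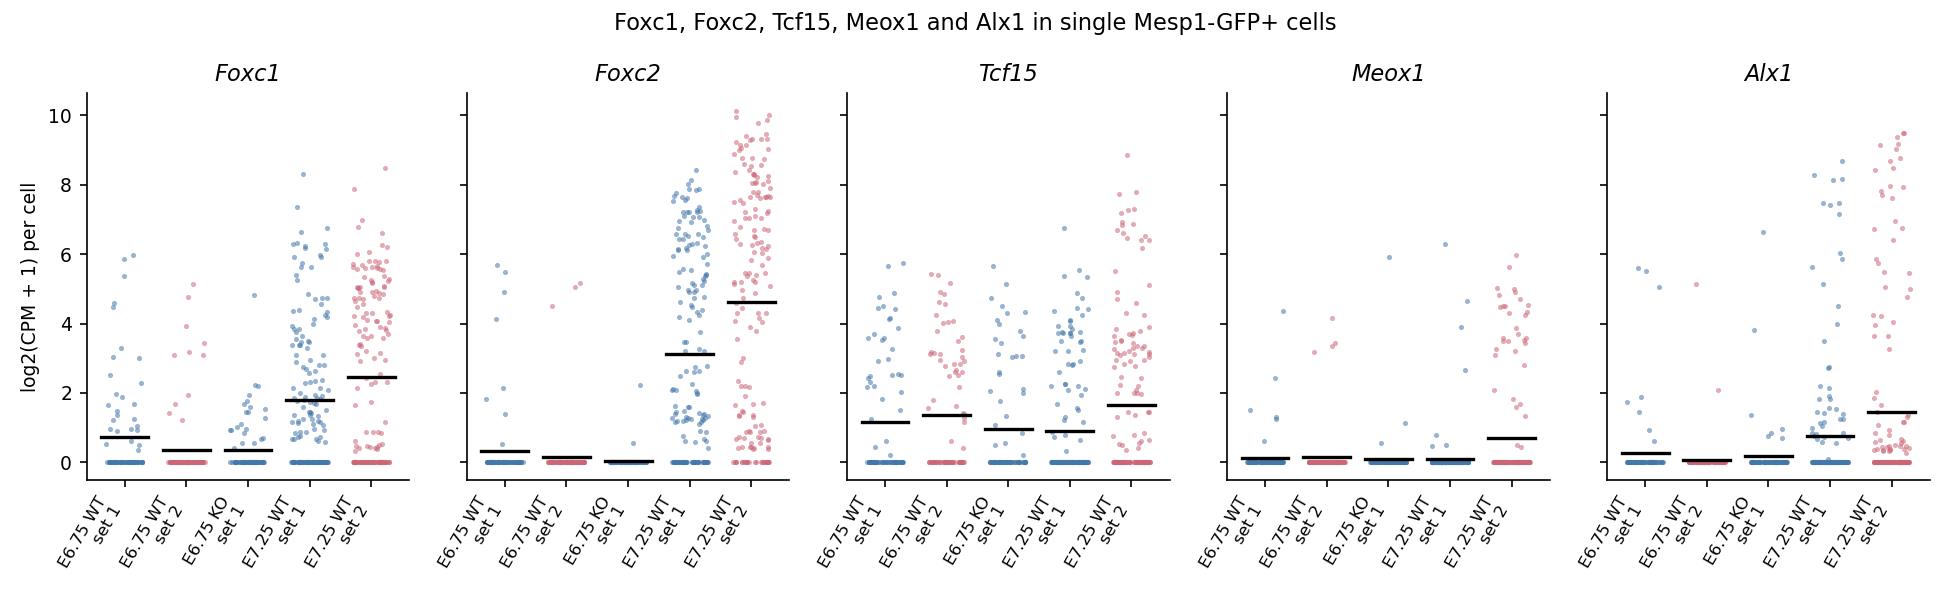
Level of each gene in each cell (vertical axis, log2 of CPM + 1) by group and library set (horizontal axis); every point is a cell and black lines are means over cells. Foxc2 reaches its highest values, up to 1114 CPM, in the E7.25 cells of set 2, and Tcf15 is spread alike over the groups except for a few E7.25 cells above 100 CPM.

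The genes can be compared with each other only per length of exon. On the scale of CPM per kb of exon, Foxc2 led at E7.25 with 40.6, followed by Tcf15 with 13.3, Alx1 with 5.95, Foxc1 with 2.61 and Meox1 with 1.10. At E6.75 the order was Tcf15 with 5.05, Foxc2 with 0.679, Foxc1 with 0.230, Alx1 with 0.211 and Meox1 with 0.149. The spread over cells was wide against these steps. On the log2(CPM + 1) scale, Foxc2 had a mean of 3.86 ± 3.23 (SD over the cells) at E7.25, 0.24 ± 1.02 in wild type at E6.75 and 0.03 ± 0.25 in knockout. Foxc1 had 2.12 ± 2.28, 0.54 ± 1.26 and 0.36 ± 0.77, and Alx1 1.11 ± 2.39, 0.17 ± 0.85 and 0.18 ± 0.85, in the same order. For Tcf15 the 3 groups lay within 1 SD of each other, at 1.27 ± 2.01, 1.27 ± 1.74 and 0.95 ± 1.61, as they did for Meox1 at 0.40 ± 1.22, 0.15 ± 0.67 and 0.09 ± 0.65.

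How often the genes were read together was counted in cells thinned to 100000 reads. At E7.25 Foxc2 was read in 55.7% of the cells, Foxc1 in 36.1%, Tcf15 in 20.2%, Alx1 in 16.4% and Meox1 in 7.92%. Of the cells with Foxc2, 51.6% (44.2 to 58.9%) also had Foxc1. Of the cells with Foxc1, 79.7% (71.5 to 86.4%) also had Foxc2. Each share lay above that of the partner over all E7.25 cells. Foxc2 was read in 83.9% of the cells with Alx1 (71.7 to 92.4%) and in 73.9% of those with Tcf15 (61.9 to 83.7%). Within set 1 the shares of cells with Foxc2 were 75.5% for Foxc1, 90% for Alx1 and 57.7% for Tcf15, and within set 2 they were 82.4, 80.6 and 83.7%. Foxc2 was itself read in 49.1% of all set 1 cells and 62.5% of all set 2 cells, and the interval for Tcf15 in set 1 (36.9 to 76.6%) includes the former. These shares rest on cells of 1 sample and on few reads a cell. Without thinning, the share of Foxc2 cells with Foxc1 was 66.5%, and with at least 3 reads of each gene asked for it was 34.4%.

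At E7.25, 29.6% of the cells had reads of none of the 5 genes, 30.8% of 1, and 77 cells (22.6%) of 2. A further 33 cells had 3, 18 had 4 and 7 had all 5. All 7 cells with all 5 genes were in set 2. In set 1 it was 0 cells, so a share of at most 2.11% is allowed. Among E6.75 wild type cells, 66.9% had none, 44 cells had 1, 11 had 2 and 2 had 3 of the genes.

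**Figure D2:**
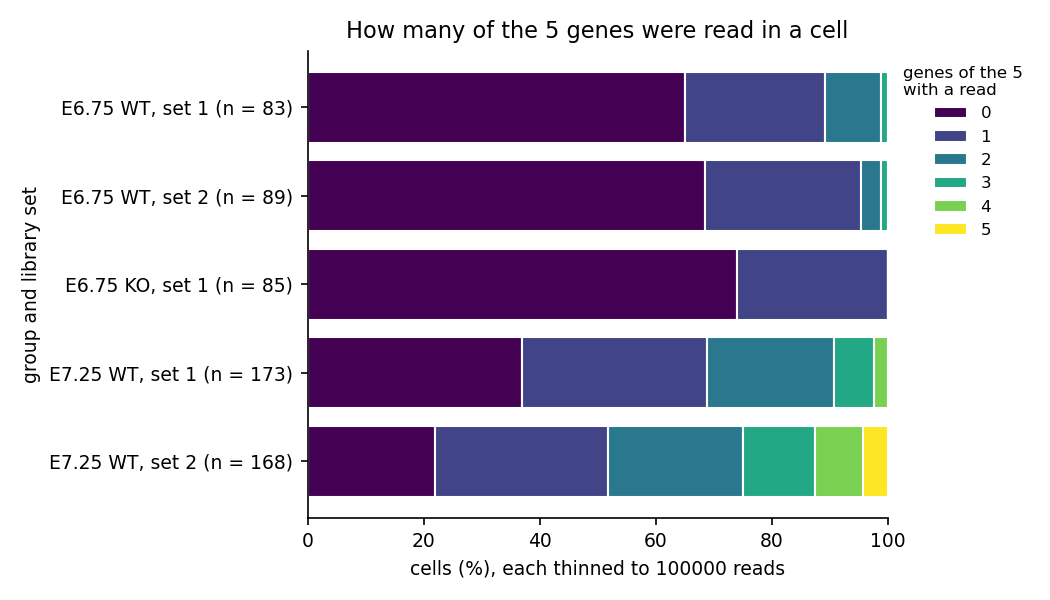
Share of cells (horizontal axis, percent) in which 0 to 5 of the genes had a read, for each group and library set (vertical axis), after thinning each cell to 100000 reads. Cells with 4 or 5 of the genes occur only at E7.25 among these groups, and no knockout cell had more than 1.

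The E7.25 cells were then clustered without the 5 genes and without the genes that separate the library sets, and the levels of the 5 were read out in the 12 clusters. As the genes vary in the same cells that were clustered, these levels are a description with no test. By summed CPM all 5 genes had their highest level in cluster 11, which held 19 cells. For Foxc1 the mean over cells was higher in cluster 1 (44.9 against 37.9 CPM), and the set 2 cells of clusters 2 (3 cells, 46.5 CPM) and 6 (5 cells, 41.2 CPM) were above its summed level. That cluster was called anterior paraxial and head mesoderm-like because 4 of 11 markers (Tbx1, Twist1, Prrx1 and Tcf21) were at least 2-fold higher in it. The median cell of it had 0 CPM of Prrx1 and of Tcf21, so the name rests mainly on Tbx1 and Twist1. All 19 cells came from set 2, so the levels in cluster 11 are set against those of the other set 2 cells below. Why no cell of set 1 fell into this cluster was not tested.

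In cluster 11, Foxc2 stood at 579.6 CPM (572.2 to 587.0), Alx1 at 336.3 CPM (330.7 to 341.9), Tcf15 at 125.4 CPM (121.96 to 128.8), Foxc1 at 39.04 CPM (37.1 to 40.999) and Meox1 at 12.6 CPM (11.52 to 13.7). Every cell had at least 238.1 CPM of Foxc2, with a median of 562 CPM and a highest value of 1114 CPM. The other set 2 cells had a median of 20.9 CPM, and 18 of them reached the lowest cell of the cluster. Tcf15 ranged from 8.15 to 459 CPM with a median of 97.6 CPM, against a median of 0 in the other set 2 cells. Alx1 ranged from 0 to 713 CPM with a median of 244.8 CPM, and 16 of the 19 cells had a read of it at equal depth. Foxc1 had a median of 32.002 CPM against 0.789 CPM in the other set 2 cells, and Meox1 a median of 8.31 CPM against 0. For Foxc1 the ranges overlapped fully, since the highest Foxc1 cell of set 2 (353.6 CPM) lay outside the cluster. All 7 cells with reads of all 5 genes were in cluster 11, and 19 of its 19 cells had reads of at least 3. The median level of Mesp1 was 189.1 CPM in it and 463 CPM in the other set 2 cells.

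Without the cells of cluster 11, the stage comparison kept Foxc2 at a log2 ratio of 4.70, Foxc1 at 2.61 and Alx1 at 2.33. Meox1 came to 0.99 and Tcf15 turned to -0.23, at 4.08 CPM against 4.95 CPM at E6.75. So 3 of the 5 genes stayed at least 2-fold higher, beside 4.6% of all measured genes. Only E7.25 cells were left out, which builds a fall into these ratios.

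Cluster 12 (35 cells, all of set 2) was presomitic mesoderm-like, with 6 of 7 markers at least 2-fold higher, among them Tbx6, Msgn1 and Hes7. Its levels were Foxc2 at 106.5 CPM (104.2 to 108.9), Foxc1 at 25.5 CPM (24.4 to 26.7), Meox1 at 5.88 CPM (5.34 to 6.46), Tcf15 at 2.12 CPM and Alx1 at 0.588 CPM (0.211 CPM without 1 cell). Its Meox1 level, from 10 cells with a read, was the second of the 12 clusters. Cluster 4 (39 cells, 18 of set 1 and 21 of set 2), which had no name and was led by genes such as Fgf5, was the other cluster with much Alx1, at 59.9 CPM (58.2 to 61.7). Foxc2 stood at 126.9 CPM there and was read in 87.2% of the cells at equal depth. Of the 20 E7.25 cells with the most Alx1, 13 were in cluster 11, 6 in cluster 4 and 1 in cluster 1. Cluster 2 (38 cells, led by Ripply2) had 208.5 CPM of Foxc2, but 56.9% of these reads came from 1 cell, without which it was 103.8 CPM. Cluster 6 (49 cells, no name) had 96.8 CPM of Foxc2, at 49.7 CPM in its 44 cells of set 1 and 445.4 CPM in its 5 cells of set 2. Its Foxc1 was at 26.4 CPM, with 53.9% of the reads from 1 cell and 14.9 CPM without it.

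Foxc2 was lower in the clusters named for other tissues. It was at 31.1 CPM in the cardiac progenitor-like cluster 3 (17 cells), with 76.9% of the reads from 1 cell and 8.82 CPM without it. It was at 23.5 CPM in the definitive endoderm and axial-like cluster 7 (32 cells), or 11.2 CPM without the 1 cell that held 55.6% of the reads. It was at 6.95 CPM (6.25 to 7.72) in the extraembryonic mesoderm-like cluster 5 (29 cells). In cluster 5, Foxc1 was at 0.676 CPM (0.468 to 0.944), or 0.222 CPM without the cell with most of its reads, and Alx1 at 0.238 CPM. In cluster 8 (27 cells, led by Tbx3 and Kdr, a receptor of endothelial progenitors) Foxc2 was at 11.6 CPM and Foxc1 at 0.807 CPM. For each gene the cell with most reads held 47.6% and 87.5% of them, and without it the levels were 6.22 and 0.105 CPM. Cluster 10, with 10 cells led by Cdx4 and Cdx2, factors of the posterior embryo, had 0.372 CPM of Foxc2 and 0.186 CPM of Foxc1.

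**Figure D3:**
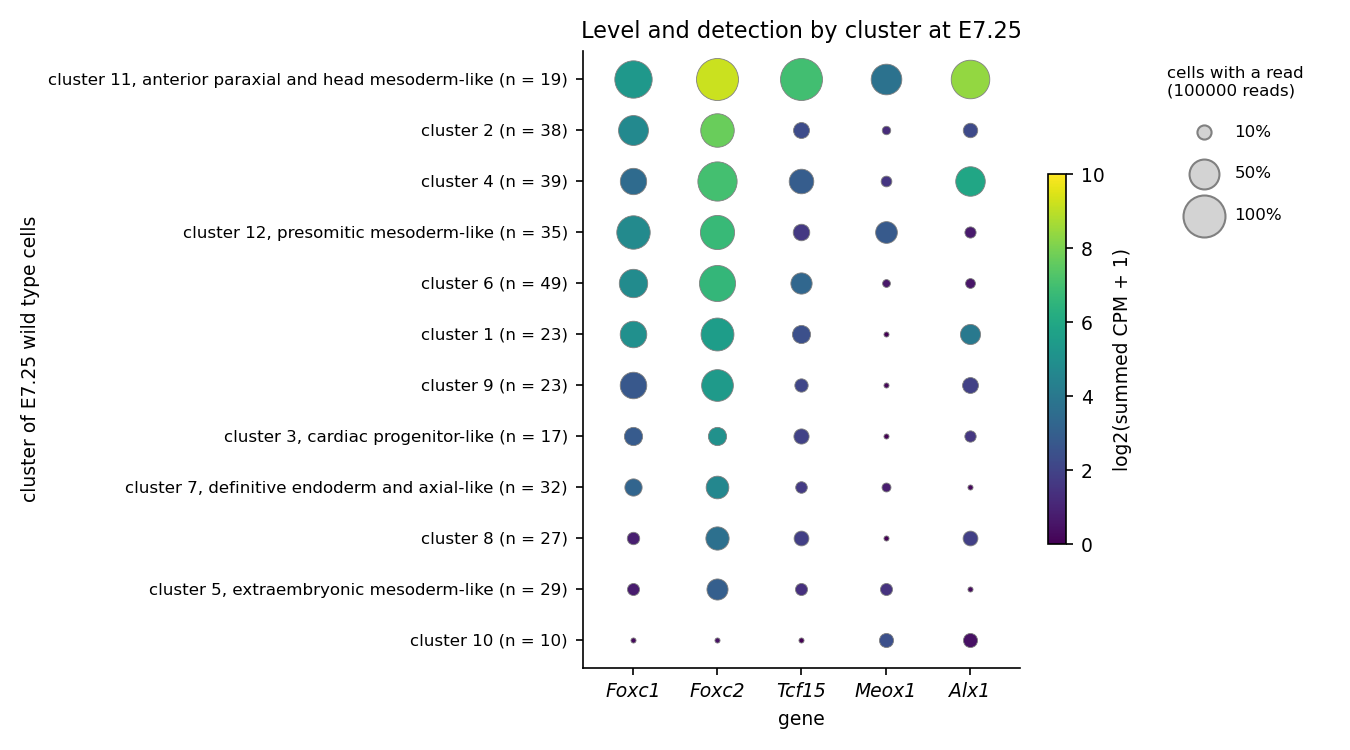
Clusters of E7.25 cells (vertical axis, ordered by Foxc2) against the 5 genes (horizontal axis); color is log2 of summed CPM + 1 and point size is the share of cells with a read after thinning to 100000 reads. Cluster 11 has the highest summed level of each gene, from 12.6 CPM for Meox1 to 579.6 CPM for Foxc2.

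Across E7.25 cells the genes whose level was most alike to Foxc1 and Foxc2 were largely the same. Likeness was Pearson's r of log2(CPM + 1), averaged over r within the E7.25 cells of set 1 and r within those of set 2, among 9750 genes. Cells share a library set and differ in depth, so r is a description. For Foxc2 the list was Pcdh8, a protocadherin of paraxial mesoderm (mean r 0.55), Ripply2, a repressor that sets segment borders (0.55), Foxc1 (0.52), Lhfp (0.52), the Notch ligand Dll1 (0.50) and the Notch ligand Jag1 (0.50). For Foxc1 it was Foxc2 (0.52), Pcdh8 (0.47), Jag1 (0.45), Ripply2 (0.44) and the Iroquois factor Irx5 (0.44). These values moved little without cluster 11, from 0.41 to 0.50 for the Foxc1 list and from 0.47 to 0.54 for the Foxc2 list.

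Alx1 and Tcf15 were most like another set of genes. For Alx1 these were the receptor gene Adrb3 (0.56), Thbd, which encodes thrombomodulin (0.56), the retinol receptor Stra6 (0.54), Cer1, a secreted inhibitor of Nodal and BMP ligands (0.54), the WNT inhibitor Sfrp1 (0.52) and Gchfr (0.45). For Tcf15 they were Cer1 (0.40), the helix-loop-helix repressor Bhlhe41 (0.38), Alx1 (0.38), Aldh1b1 (0.37), Adrb3 (0.36) and Sfrp1 (0.35). The Tcf15 values lay mainly in set 2, where r with Bhlhe41 was 0.67 against 0.09 in set 1, and without cluster 11 the mean r of the 6 genes fell to between 0.16 and 0.24. The Alx1 values fell less, to between 0.30 (Gchfr) and 0.47 (Adrb3) without cluster 11. Taken over ranks of cells (Spearman's rho), they lay between 0.28 (Thbd) and 0.38 (Stra6). For Meox1, read in few cells, the list was led by the sialyltransferase gene St8sia2 (0.39), the retinoic acid binding protein gene Crabp2 (0.37) and Shroom3 (0.32), followed by Ddit4 (0.30), Thbd (0.30) and Adgrg1 (0.29). Of these 6 genes 2 were among the first 6 with cells thinned. For St8sia2 r was 0.52 in set 1, where 7 cells had a Meox1 read, and 0.26 in set 2, and for Thbd it was 0.47 and 0.14.

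Among the 5 genes themselves, Foxc1 and Foxc2 had the highest r in both sets, at 0.43 in set 1 and 0.61 in set 2, and 0.57 in set 2 without the 19 cells of cluster 11. Foxc2 and Alx1 had 0.37 in set 1 and 0.42 in set 2, and 0.21 in set 2 outside cluster 11. Tcf15 and Alx1 had 0.20 in set 1 and 0.56 in set 2, but 0.11 in set 2 outside cluster 11. Tcf15 and Meox1 went from 0.30 in set 2 to -0.01 in the same way. Leaving out the cluster with the highest summed level of all 5 genes tends by itself to lower r, here and in the lists above.

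**Figure D4:**
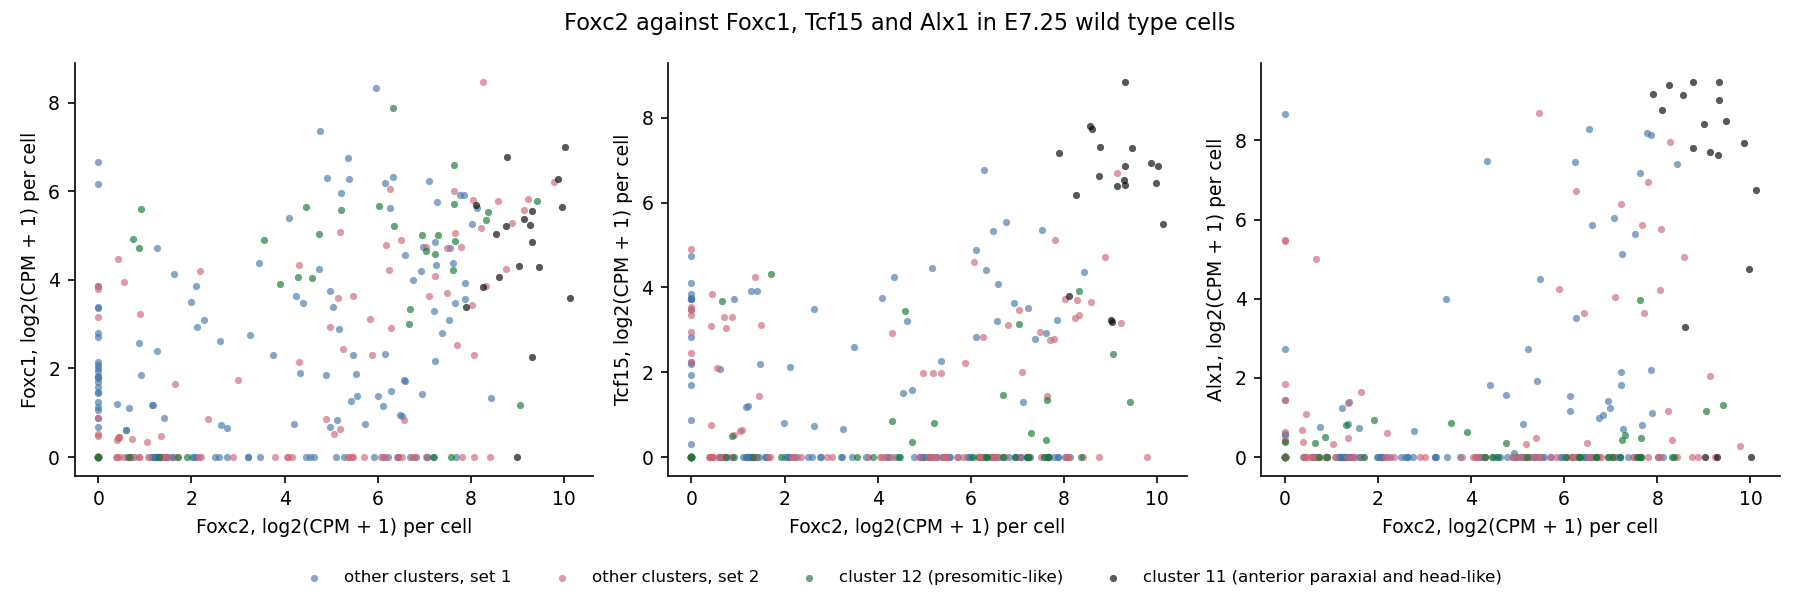
Foxc2 (horizontal axis) against Foxc1, Tcf15 and Alx1 (vertical axes) in each E7.25 cell, all as log2 of CPM + 1, with cells of clusters 11 and 12 marked. Cluster 11 cells lie high on Foxc2 and on Tcf15 or Alx1, while the relation of Foxc1 and Foxc2 runs through both library sets (r 0.43 and 0.61).

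The knockout comparison sets the 85 knockout cells against the 83 wild type cells of set 1 at E6.75, and shares no control cells of set 2 with the stage comparison but does share those of set 1. Foxc1 and Foxc2 were at least 2-fold lower in knockout cells. Of 13934 genes with at least 1 CPM in either group, 7.64% were at least 2-fold lower. Tcf15 and Alx1 were within 2-fold, and Meox1 was under 1 CPM in both groups.

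Foxc2 had 2 reads in the 85 knockout cells (0.0176 CPM, 0.00213 to 0.0635) and stood at 3.49 CPM (3.13 to 3.89) in the 83 wild type cells. The ratio of knockout to wild type was 0.00503 (0.000606 to 0.0183), and the log2 ratio of CPM + 1 was -2.14. The wild type reads came from 8 cells, 3 of which gave 90.6% of them. The highest knockout cell had 3.66 CPM and the highest wild type cell 50.1 CPM, while 83 knockout and 75 wild type cells had no read. At equal depth Foxc2 was read in 0 of 85 knockout cells, a result that allows up to 4.25% of them. It was read in 4 of 83 wild type cells (4.82%, 1.33 to 11.9%), so a difference in the share of cells was not detectable at this number of cells. Without wild type cell 80, which held 46.2% of the wild type reads, the log2 ratio was -1.54.

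Foxc1 had 36 reads in knockout cells (0.316 CPM, 0.221 to 0.438) and stood at 1.84 CPM (1.57 to 2.13) in wild type cells. The log2 ratio was -1.11 (-1.36 to -0.84). It was read in 22 knockout and 27 wild type cells, of which 19 and 16 had only 1 or 2 reads. At equal depth Foxc1 was read in 3 of 85 knockout cells (3.53%, 0.734 to 9.97%). The same share was 10 of 83 wild type cells (12.05%, 5.93 to 21.04%), and the intervals overlapped. The highest knockout cell had 27.3 CPM, and 1 knockout cell reached 10 CPM against 5 wild type cells. The ratio came to -0.98, -0.92 or -0.94, inside 2-fold, when wild type cell 7, 39 or 78 was left out, and it was -0.83 against the wild type cells of both sets, where 1 of the 5 genes was at least 2-fold lower (background 9.13%).

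The level of Tcf15 was 4.49 CPM (4.11 to 4.89) in the knockout group and 5.54 CPM (5.08 to 6.04) in the wild type group, with a log2 ratio of -0.25 (-0.46 to -0.04). It was read at equal depth in 15 of 85 knockout cells (17.6%) and in 19 of 83 wild type cells (22.9%), and the intervals of these shares overlapped. Alx1 was at 1.41 CPM against 2.81 CPM, a log2 ratio of -0.66. In knockout, 97.5% of its reads came from 3 cells. Its direction rested on single cells, since the ratio was 0.20 without wild type cell 80 and -1.51 without knockout cell 80. With cells thinned, Alx1 was at 0.25. Meox1 was at 0.220 CPM against 0.570 CPM (log2 ratio -0.36). Of its wild type reads 83.3% came from 1 cell (cell 37), without which the ratio was 0.15.

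Other values moved with these. All 8 epiblast markers were higher in knockout cells than in wild type cells of set 1, 2 of them at least 2-fold. Their summed level ranged from 158.7 to 5312 CPM over knockout cells (median 1520 CPM) and from 240 to 2677 CPM over wild type cells (median 780.5 CPM). Of 7 primitive streak markers, 7 were higher and 1 at least 2-fold. Markers of some later mesoderm lists were lower at least 2-fold in knockout: 6 of 7 measured haemato-endothelial genes (median log2 ratio -1.41), 5 of 7 cardiac progenitor genes (-1.49) and 5 of 8 extraembryonic mesoderm genes (-1.03). The summed levels of these lists had medians over cells of 20.5, 91.4 and 253.6 CPM in knockout and 101.5, 218.1 and 346.6 CPM in wild type cells. The anterior paraxial and head mesoderm list differed from these. Of its 8 measured markers, 2 were at least 2-fold lower and 3 were higher, 1 of them at least 2-fold (median -0.43). Its summed level was higher in knockout, at 899.5 against 471.8 CPM, with a median cell of 871.0 against 322.1 CPM. Cdh5, of the haemato-endothelial list, had no read in either group. Median depth was 940161 reads in knockout and 689539 in wild type cells. The part of these in the values of the Foxc genes was not tested.

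The E6.75 cells with most Foxc2 or Alx1 can be given singly. Foxc2 reached 10 CPM in 7 wild type cells at E6.75, 4 in set 1 and 3 in set 2, and in 0 knockout cells. The highest were cell 25 with 50.1 CPM of Foxc2 and 21.6 CPM of Tcf15, and cell 80 with 44.1 CPM of Foxc2, 47.6 CPM of Alx1, 16.4 CPM of Tcf15 and 65.5 CPM of Tbx1, a T-box factor of anterior mesoderm. Cell 80 was the only E6.75 cell with at least 10 CPM of both Foxc2 and Alx1. Alx1 also stood high in cell 33 (44.5 CPM, with 13.6 CPM of Tcf15), cell 59 (32.2 CPM) and a cell of set 2 (34.3 CPM, with 34.3 CPM of Foxc1 and 28.2 CPM of Tcf15). Tcf15 thus stood at 10 CPM or more in 3 of the 4 wild type cells with that much Alx1 and in 28 (16.3%) of all of them. Among knockout cells, Alx1 reached 98.2 CPM in cell 80 and 12.98 CPM in cell 73, neither of which had a Foxc1 or Foxc2 read. At equal depth 22 of 85 knockout cells had reads of 1 of the 5 genes and 0 had reads of 2 or more. Of the 83 wild type cells of set 1, 8 had reads of 2 and 1 of 3 of the genes.

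Genes that act around the 5 were counted from lists chosen with earlier results of these data known. Of 13 presomitic genes, 11 were at least 2-fold higher at E7.25 and none lower, with a median log2 ratio of 2.18 beside 0.03 over all measured genes. Ripply2 led with 32.7 CPM against 0.219 CPM (4.79), followed by Dll1 (3.42), Pcdh8 (3.28), Cited1 (3.13) and Hoxb1 (2.83). In set 1 it was 10 of 12 measured genes and in set 2 it was 12 of 13. Of 19 somite and paraxial genes only 9 reached 1 CPM at either stage, and 3 of these were at least 2-fold higher. They included Aldh1a2, which makes retinoic acid (16.9 against 0.952 CPM, log2 ratio 3.20), and the ephrin receptor gene Epha4 (1.81). The activin inhibitor Fst was at -0.86.

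Of 15 head mesenchyme genes 12 were measured, with 2 at least 2-fold higher and 2 at least 2-fold lower. On that measure 2.09% of all measured genes were at least 2-fold lower. The lower genes included Six2 (-1.75), and the leading abundant member on the other side was Twist1 (8.42 against 3.81 CPM, 0.97). The count of higher genes was 0 in set 1 and 6 in set 2. Of 10 lateral and intermediate mesoderm genes 7 were measured, all higher and 2 at least 2-fold, with Bmp4 at 2.03 among them. The median of that list was 0.52.

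Forkhead genes next to Foxc1 and Foxc2 were low apart from Foxf1. Foxl1 was at 1.38 against 0.160 CPM (1.04) and Foxf2 at 1.45 against 0.183 CPM (1.05), and Foxq1 stayed under 1 CPM. Foxf1 was at 531.8 against 497.8 CPM over all cells, but it differed by library set: 1510 and 1329 CPM in set 1, and 38.3 and 10.1 CPM in set 2. None of the partners and inhibitors of helix-loop-helix factors such as Tcf15 was at least 2-fold higher at E7.25. The partner genes Tcf3, Tcf4 and Tcf12 were at 0.42, 0.32 and -0.02, and the inhibitor genes Id1, Id2 and Id3 at -1.85, 0.11 and -0.39, with Id1 at 113.6 against 413.6 CPM.

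In the knockout comparison 9 presomitic genes were measured and 4 were at least 2-fold lower: Dll1 at 2.48 against 17.3 CPM (-2.40), Tbx6 (-2.30), Dll3 (-2.10) and Rspo3 (-1.83). The median of the list was -0.98, beside -0.03 over all measured genes. Somite and paraxial genes were lower at least 2-fold in 3 of 9, with Cdh11 at -1.499 and Epha4 at -1.23, and higher in 2 of 9, with Fst at 764.3 against 363.2 CPM (1.07). Over all measured genes 4.8% were at least 2-fold higher in knockout. Head mesenchyme genes were lower at least 2-fold in 3 of 9, led among abundant members by Prrx2 (-1.08). Of the lateral and intermediate mesoderm genes 6 were measured, all lower and 3 at least 2-fold, led by Hand1, a helix-loop-helix factor of lateral and extraembryonic mesoderm (5.38 against 66.6 CPM, -3.41). The median of that list was -1.07. None of the 6 helix-loop-helix partner and inhibitor genes was 2-fold different, with values from -0.62 for Id1 to 0.35 for Id3.

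**Figure D5:**
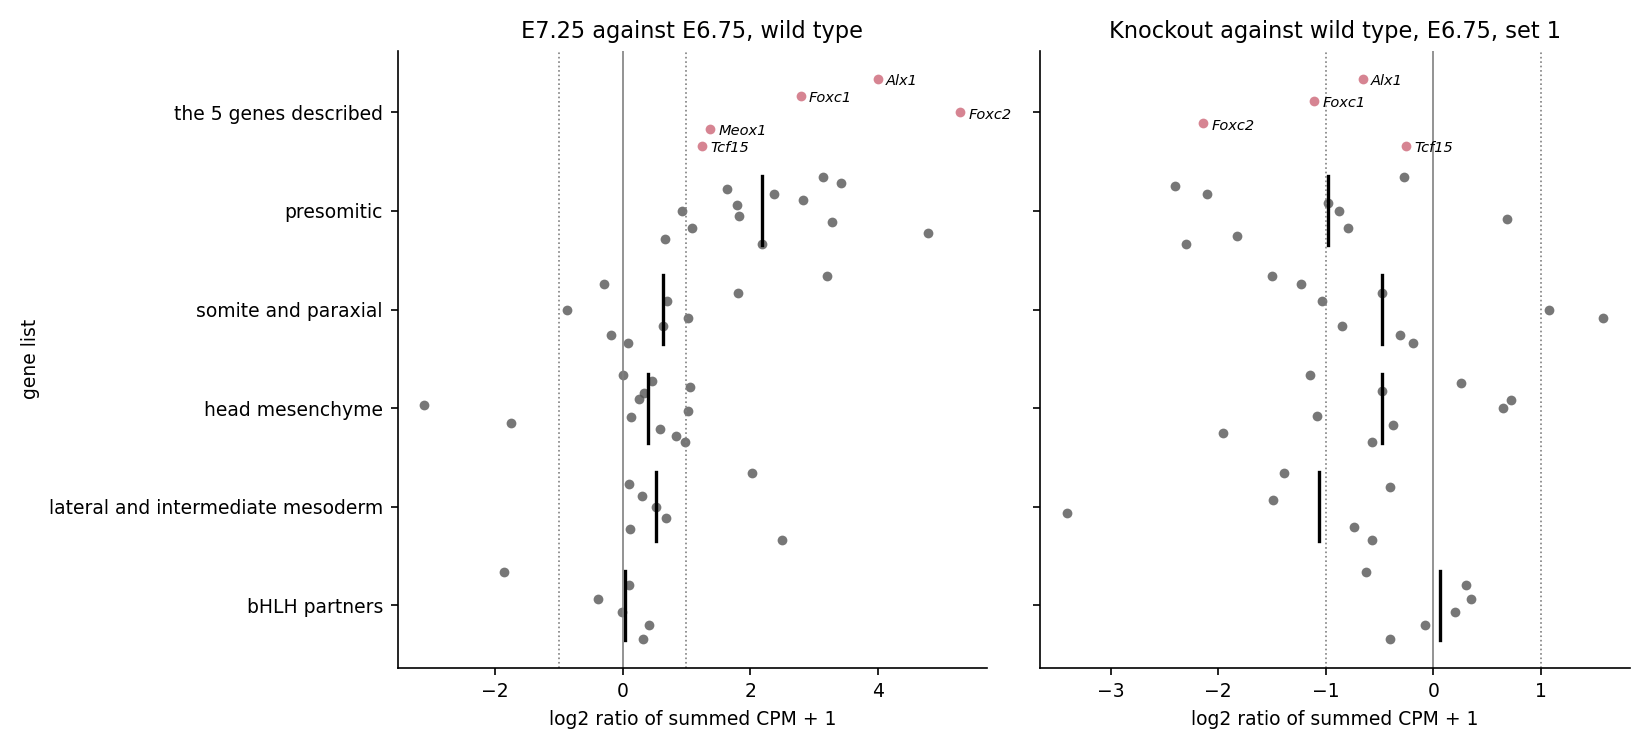
Log2 ratio of summed CPM + 1 (horizontal axis) of the 5 genes and of each measured gene of the lists (vertical axis), E7.25 against E6.75 on the left and knockout against wild type of set 1 on the right; black lines are list medians, dotted lines 2-fold, and Meox1 is absent on the right as it was under 1 CPM. Foxc1 and Foxc2 lie beyond 2-fold on opposite sides in the panels.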

How the data were processed

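The authors deposited a table of raw read counts, with a row for each gene and 598 columns of single cells. Per the submitters' processing notes, the authors used GSNAP and HTSeq 0.5.3p3 on build mm10. Which annotation release, strand setting and cell filter they used is not given in the sources used here. No step here removed duplicate reads, and the protocol in the labels marks no molecules by which to tell them. Whether the authors removed them is not known here. Gene symbols, coordinates (GRCm38) and sequences are from GENCODE M21, in which 40254 of the 40912 genes had a symbol. All 5 genes matched.

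Columns were matched to cells by title, and 0 columns had no sample. No 2 columns were identical. A filter of 100000 reads and 2000 genes removed 0 cells. Reads were summed by group and scaled to CPM, and ratios have 1 CPM added, so that differences of low genes come out too small. A gene counted as measured from 1 CPM in the higher group. With 1 sample a group, no differential test was made. Cells with a read of at least 5 of 8 genes (Dusp15, Foxe1, Hoxd13, Kcnk12, Pou3f3, Six3, Sox3 and Vax1) formed library set 1. Shares used cells thinned to 100000 reads. Deep cells weigh most in sums, and the depth of 101895 to 14159574 reads per cell limits detection of low genes in shallow cells. Where a limit is given for a share of 0 cells, it is the upper end of the exact interval.

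Clusters used the 2000 most variable genes, 20 principal components, 15 neighbours and Leiden resolution 1 in scanpy 1.11.5 with igraph 0.11.9, with genes centred within library sets. To be named, a cluster needed 3 or more markers of a list at a 2-fold ratio, and its 10 leading genes had to hold more of that list than of any other. No doublet caller was run. Named genes are the 5 genes, the 6 genes of highest mean r with each (at least 5 CPM, read in 10% of the cells of each set), up to 5 genes of at least 5 CPM per list and comparison with the largest ratios, and the forkhead neighbours, helix-loop-helix partners and Mesp1. Others were named after their values were seen. A few genes that this rule names are not reported here. The 5 genes, the lists and the markers were chosen with earlier results of these data known. Scaling factors came from edgeR 4.0.16 (TMM) and DESeq2 1.42.0 (median of ratios), in alternatives only. Other alternatives changed the added CPM, cell filter, weighting, thinning, mitochondrial genes, list minimum, library sets and clustering. Those without cluster 11 and without single cells were added after the data were seen. The steps were tested on simulated data.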

Additional observations from a re-analysis of the deposited data

How the results depend on the processing

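No paired analysis was possible because the number in a label counts cells, each group is 1 sample and no result comes from a test. Over the alternatives run, single cells left out included, the log2 ratios of Foxc1, Foxc2 and Alx1 between the stages ranged from 1.15 to 3.04, from 3.24 to 6.28 and from 1.97 to 5.15, all on the same side of 2-fold. Tcf15 turned to -0.52 in library set 1 and to -0.23 without the E7.25 cells of cluster 11. The count of the 5 genes at least 2-fold higher at E7.25 was 3 with 10 CPM added, in set 1 and without cluster 11, 4 after thinning or with equal weights for cells, and lay between 4 and 5 with each cell left out. The presomitic count of 11 was 7 with 10 CPM added. The head mesenchyme count of 2 was 0 with list members of at least 5 CPM, with 10 CPM added and in set 1, 1 with every cell weighted equally and without cluster 11, and 6 in set 2. In the knockout comparison the count of 2 genes lower was 0 with 10 CPM added, 1 with cells of at least 500000 reads and 4000 genes and 1 against the wild type cells of both sets, where the median of all genes moved to -0.11. It lay between 1 and 3 with each cell left out. Foxc2 stayed lower in all 11 alternatives (-2.26 to -0.43), as did Foxc1 (-1.49 to -0.20), while Meox1 and Alx1 reached 0.34 and 0.25. The share of Foxc2 cells with Foxc1 was 66.5% without thinning, 60.4% at 500000 reads, 34.4% with at least 3 reads and 43.5% in set 1. Other clusterings gave an anterior paraxial and head mesoderm-like cluster of 19, 24 and 38 cells that held all 19 cells of cluster 11; at resolution 1.5 and without centring it led for 4 of the 5 genes, Foxc1 being higher elsewhere. The causes of these moves were not tested.

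Depth limits Meox1 and all E6.75 levels but that of Tcf15, which rest on reads from a few cells.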
